A study of Mus musculus with 24 samples.

Results

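Day 18 of a fat cell differentiation course, its last time point, was set against day 2, when the cells had been in the inducing medium for a short time. The cells were NIH 3T3 L1, a mouse fibroblast line that accumulates lipid and takes on the features of adipocytes when induced. The 3 arrays titled day 18 and the 3 titled day 2 were 6 of the 24 arrays of the series, which covers 8 days with 3 replicates each, and all 9558 genes with a detected probe were tested. Day 18 cells carry the label maturating and had received a differentiation medium with IBMX, insulin and dexamethasone and then a maturation medium that contained insulin. Day 2 cells carry the label differentiating and had received the differentiation medium alone. Time and medium therefore changed together and cannot be told apart. Day 0 cells, labelled undifferentiated, served to say in which direction a gene had moved by day 2. The labels name the inducing medium for them as well, and the sources used here do not tell whether they were harvested before that medium went on. No genotype or treatment other than the media is named for any group.

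Dexamethasone activates the glucocorticoid receptor, IBMX keeps cyclic AMP high by blocking its breakdown, and insulin at high dose also acts through the IGF1 receptor. In 3T3-L1 cells this mixture starts a short phase of renewed cell division and turns on Cebpb and Cebpd, whose products turn on Pparg and Cebpa, and these in turn maintain the adipocyte genes. The comparison of day 18 with day 2 asks which changes of early induction last to the end of the course and which are undone.

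Values are log2 intensities of single arrays after background correction and quantile normalization, and differences are day 18 minus day 2 on the log2 scale with the standard error (SE) of a limma fit, n = 3 arrays per day. A gene was called when its Benjamini-Hochberg adjusted p from limma over all 9558 genes was under 0.05. The spread behind each SE came from all 24 arrays, 1 of which, replicate 2 of day 4, stood away from the remaining arrays of its day. Leaving that array out, a choice made after seeing the data, gave 2391 genes higher and 2926 lower and the same call for all 316 genes named by rule. The labels do not say that replicates are separate cultures, so the p-values measure the spread between these samples, which may be technical. The 6 arrays detected 46.5% to 47.6% of 25697 probes, and replicates correlated across genes at 0.988 to 0.994 on day 18 and at 0.989 to 0.996 on day 2. The log2 of the summed signal of 9 adipocyte markers was 15.5 to 15.8 on day 18, against 14.2 to 14.3 on day 2. All 8 fibroblast markers with a probe were detected on all 6 arrays, and their sum was also higher, at 13.8 to 14 on day 18, against 13.3 to 13.5 on day 2. None of 6 endothelial markers was detected on either day, and of 6 macrophage and leukocyte markers Cd14 alone was. These are bulk cultures, in which fewer cells of a type and less RNA per cell cannot be told apart. Counts over gene lists cover the members that passed the detection filter, and a member undetected on day 2 passed it through other days, so such counts are in part fixed by the filter.

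Day 18 differed from day 2 across much of the transcriptome. Of the 9558 genes, 5305 were called (55.5%), with 2391 higher on day 18 (25%) and 2914 lower (30.5%). A change of at least 2-fold was called for 1749 genes (18.3%), of which 978 were higher (10.2%) and 771 lower (8.07%). The 3 arrays of one day did not overlap those of the other for 5772 genes (60.4%), and the median difference over all genes was -0.068. In the plot of all genes the differences run from 8.37 for Apoc1 to -7.28 for Pip.

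**Figure D1:**
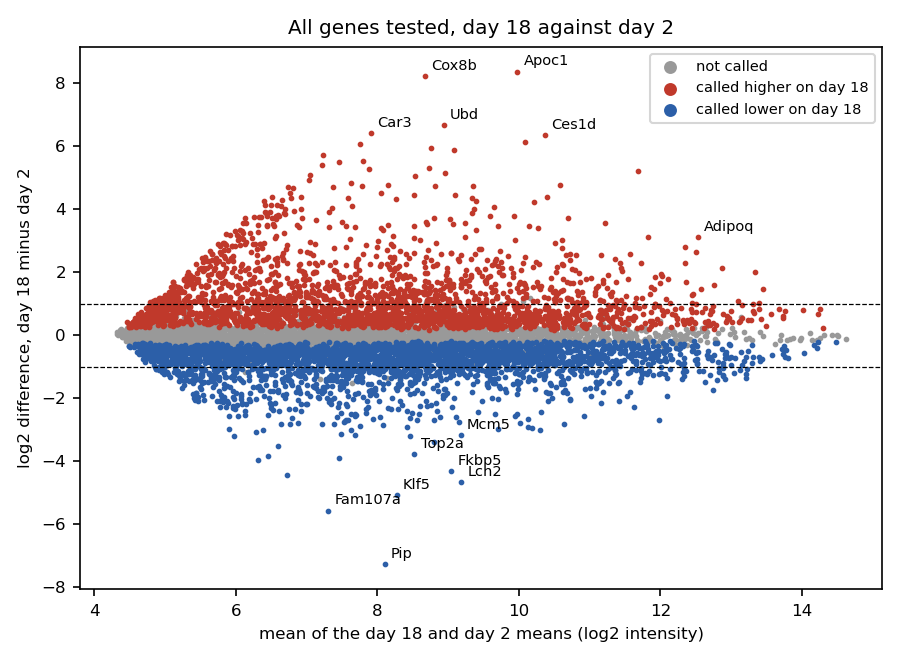
Each point is 1 of 9558 genes, with the mean of the day 18 and day 2 means in log2 intensity on the x axis and the log2 difference, day 18 minus day 2, on the y axis. Red points were called higher on day 18 (2391 genes), blue points lower (2914 genes), grey points were not called, and dashed lines mark a 2-fold difference.

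The 15 largest rises on day 18 were led by Apoc1 and Cox8b. Apoc1, an apolipoprotein of lipid particles (chromosome 7, 19689480 to 19692659, GRCm38.p6), had 14.16, 14.10 and 14.22 on the day 18 arrays, against 5.86, 5.75 and 5.77 on the day 2 arrays, a difference of 8.37 ± 0.57 (adjusted p = 9.02e-11). Cox8b, a cytochrome c oxidase subunit typical of muscle and brown fat (chromosome 7, 140898942 to 140900446), had 12.77, 12.71 and 12.89 on the day 18 arrays, against 4.55, 4.52 and 4.62 on the day 2 arrays, where it was undetected on all 3, and was at least 251-fold higher on day 18 (adjusted p = 5.89e-12). In both cases the days lay far apart and the 3 arrays of a day lay close together. The rest of the 15 were Ubd, Car3, Ces1d, Ifi27l2a, Ifit3, Thrsp, Sncg, Aqp7, Slc13a4, Cox7a1, Abcd2, Aoc3 and Gbp2. Ubd, which encodes the ubiquitin-like modifier FAT10, had 12.27, 12.16 and 12.38 on the day 18 arrays, against 5.69, 5.86 and 5.26 on the day 2 arrays, a difference of 6.67 ± 0.50 (adjusted p = 3.7e-10). Slc13a4, a sulfate transporter, was 46-fold higher and Abcd2, a peroxisomal transporter of long fatty acyl chains, at least 34.4-fold higher. Aoc3, an amine oxidase abundant on the fat cell surface, varied more among replicates, with 10.80, 12.09 and 11.26 on the day 18 arrays, against 5.48, 6.46 and 6.24 on the day 2 arrays, and still did not overlap between days. The 15 largest falls were Pip, Fam107a, Klf5, Lcn2, Ang4, Fkbp5, Retnla, Spry3, Krt14, Top2a, Krt15, Aldh3a1, Krt13, Nusap1 and Mcm5, and every one of them had been higher on day 2 than on day 0. The other probe of Nusap1 gave -0.73.

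What day 2 had changed was sorted by its state on day 18. Day 2 differed from day 0 by at least 2-fold in 1488 genes (15.6%), of which 627 were higher on day 2 (6.56%) and 861 lower (9.01%). The contrasts behind the sorting (day 2 minus day 0, day 18 minus day 2, day 18 minus day 0) share arrays, so the counts are a description without a test. A gene counted as extended where day 18 went further the same way, as not called where days 18 and 2 were not called different, and as undone in part, in full or overturned where day 18 went back and ended short of, at or beyond the day 0 level, by the call of day 18 against day 0. Of the 627 day 2 rises, 139 were extended (22.2%), 116 not called (18.5%), 141 partly undone (22.5%), 147 fully undone (23.4%) and 84 overturned (13.4%). Of the 861 day 2 falls, 99 were extended (11.5%), 243 not called (28.2%), 313 partly undone (36.4%), 116 fully undone (13.5%) and 90 overturned (10.5%). Expressed as the share of the day 2 log2 change still present on day 18, the median was 55.3% for rises and 66.4% for falls. The number of genes in a class depended on the fold minimum for the day 2 change: with at least 4-fold, 42 rises were extended and 6 overturned, and 5 falls were extended and 18 overturned.

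In the class medians most of the return took place between days 4 and 10. For the fully undone rises the median difference from day 0 was 1.31 on day 2, 1.05 on day 4, 0.46 on day 6, 0.07 on day 10 and 0.00 at the end. Overturned rises were already below day 0 on day 6, at -0.55. For the partly undone falls the median went lower before it came back, with -1.74 on day 2, -2.16 on day 4, -1.06 on day 10 and -0.89 at the end. Another 290 genes (3.03%) were not called between days 2 and 0 and were at least 2-fold higher on day 18 than on day 2, and 167 (1.75%) were at least 2-fold lower. Between days 18 and 2 themselves 4253 genes were not called (44.5%), of which 47 (0.492% of all genes) were at least 2-fold higher than on both on some day between, and 69 (0.722%) at least 2-fold lower.

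**Figure D2:**
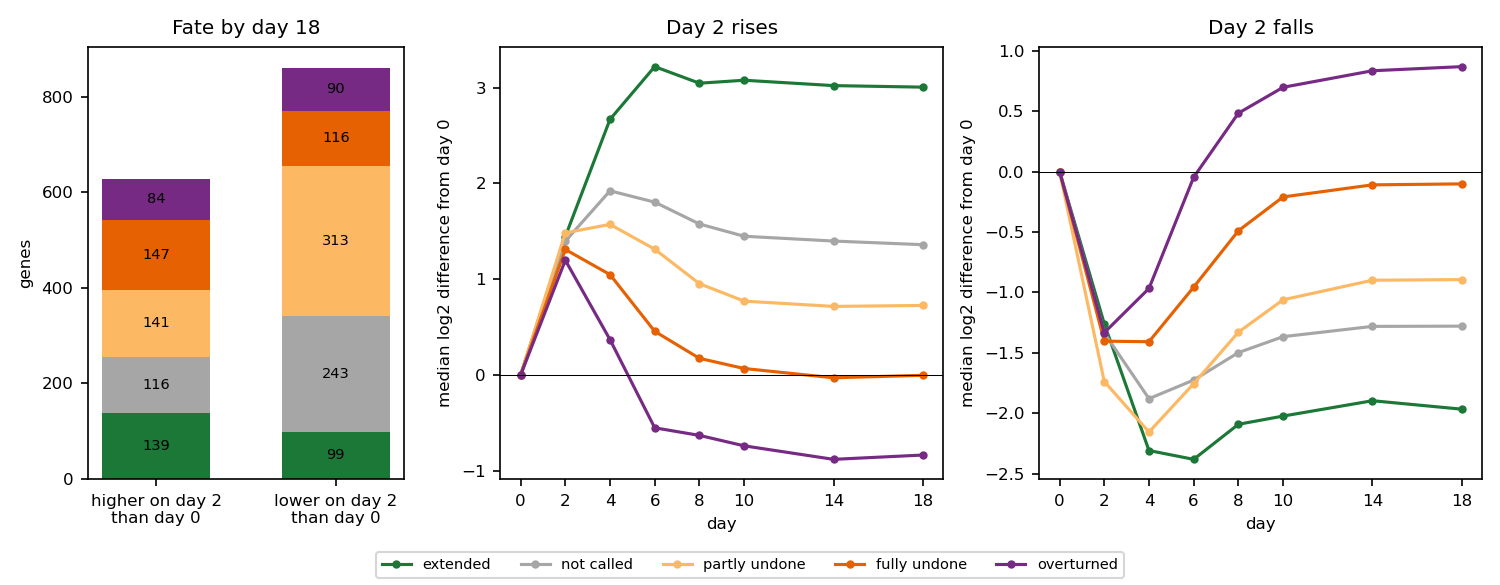
Left, the number of genes in each class by day 18, for the 627 genes at least 2-fold higher and the 861 at least 2-fold lower on day 2 than on day 0. Middle and right, the median log2 difference from day 0 of each class over days 0 to 18, for rises and falls, with fully undone rises at 1.31 on day 2 and 0.00 on day 18.

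Markers of the fat cell were the list with the highest median. Of 22 adipocyte markers tested, 20 rose, 1 fell (Agt) and 1 was not called (Retn), with a median of 3.06 against -0.068 over all genes. By day 2, 12 of them had been above day 0 and 3 below, while on day 18 all 22 were above day 0. Over all genes, 51.5% were called between days 2 and 0 (25% higher on day 2 and 26.5% lower), and 57.2% between days 18 and 0 (23.2% higher on day 18 and 34% lower). Adipoq, the gene of the adipokine adiponectin (chromosome 16, 23146536 to 23157968), had 4.55, 4.68 and 4.56 on the day 0 arrays, 10.87 to 11.06 on the day 2 arrays and 13.87, 14.13 and 14.27 on the day 18 arrays. It was undetected on day 0, and the further rise of 3.11 ± 0.11 (8.66-fold, adjusted p = 7.18e-15) left no overlap between days 18 and 2. Car3, a carbonic anhydrase that is abundant in fat (chromosome 3, 14863538 to 14872381), had 11.02, 11.20 and 11.13 on the day 18 arrays, against 4.65, 4.63 and 4.80 on the day 2 arrays, where it was undetected, a rise of at least 78.6-fold (adjusted p = 1.1e-08). Slc2a4, the insulin-responsive glucose carrier GLUT4 (chromosome 11, 69942286 to 69948216), had 9.69, 9.71 and 9.86 on the day 18 arrays, against 5.33, 5.41 and 5.49 on the day 2 arrays, a difference of 4.34 ± 0.12 (adjusted p = 6.3e-17). None of these 3 genes had an array of day 18 inside the day 2 range.

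Other markers differed in size, timing and direction. Ces1d, a carboxylesterase of fat and liver, had 9.20 ± 0.11 on day 0, 7.19 ± 0.12 on day 2 and 13.54 ± 0.05 on day 18 (mean ± SD, n = 3 each), so that a fall on day 2 was followed by a rise of 6.35 ± 0.09 (adjusted p = 9.1e-21). Sncg, gamma-synuclein, was not called between days 2 and 0 and rose by 5.88 ± 0.53 by day 18 (adjusted p = 7.83e-09). Lep, which encodes leptin, was detected on 2 of 3 arrays of day 2, where its values were 5.23, 4.88 and 4.70, against which day 18 had 7.79, 7.89 and 7.88. Fabp4, the adipocyte fatty acid binding protein, was undetected on day 2 and at least 6.01-fold higher on day 18 by its single probe. Cidec, which fuses lipid droplets, had 12.57, 12.83 and 13.05 on the day 18 arrays, against 11.10, 11.18 and 11.21 on the day 2 arrays, a rise of 1.65 on top of a day 2 rise of 6.88. Most of its change over the course had thus come by day 2, while for Slc2a4 the day 2 rise was 0.88 and the later one 4.34. Agt, the precursor of angiotensin, fell by 0.75, with 8.78, 8.74 and 8.94 on day 18, against 9.65, 9.47 and 9.60 on day 2, and 82.9% of its day 2 rise was still present.

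The transcription factors that drive these genes split. Of 20 adipogenic factors tested, 8 rose and 6 fell, with a median of 0.03. Thus 70% were called, against 55.5% of all genes (25% higher and 30.5% lower). Pparg, the nuclear receptor at the head of the program, had 12.72, 12.54 and 12.66 on the day 18 arrays. On the day 2 arrays it had 11.73, 11.55 and 11.57, a difference of 1.03 ± 0.11 (2.04-fold, adjusted p = 6.49e-08). The other 2 probes of Pparg gave 1.49 and 2.82 on the log2 scale and were called higher as well, so the size of its rise is not settled. Cebpa, its partner, was not called, with 7.58, 7.68 and 8.04 on the day 18 arrays, against 7.65, 7.47 and 7.61 on the day 2 arrays and a difference of 0.19 ± 0.16 (adjusted p = 0.339), and its arrays of the days overlapped. Cebpb, the early factor that precedes both, had 11.58, 11.49 and 11.76 on the day 18 arrays, against 12.98, 12.97 and 13.05 on the day 2 arrays and fell by 1.39 (SE 0.09, adjusted p = 6.14e-11), leaving 15.7% of its day 2 rise. Klf5, another early factor (chromosome 14, 99298691 to 99313412), had 6.06, 5.65 and 5.47 on the day 18 arrays, against 10.90, 10.71 and 10.84 on the day 2 arrays, a fall of 5.09 (SE 0.15, adjusted p = 2.05e-16) that ended below its day 0 mean of 7.30. Neither of these early factors had an overlapping array. Klf15 and Mlxipl (ChREBP, a glucose-responsive factor of lipid synthesis) were detected on 1 of 3 arrays of day 2 each and rose by 1.93 and 2.34, and the oxysterol receptor Nr1h3 (LXR alpha) rose by 1.49. Rxra and Foxo1 fell by 0.92 and 0.64 but kept 44% and 52.7% of their day 2 rises. Preadipocyte markers and inhibitors of adipogenesis split as well, with 8 of 20 up and 8 down, so that 80% were called. Among them Wnt5a was up by 2.17 and Wnt6 down by 1.42. On day 2, 16 of the 20 had been lower than on day 0, among them all 8 that later rose. On day 18, 15 of the 20 were below day 0 and 0 above it. Dlk1 (Pref-1), the best known preadipocyte inhibitor, had 12.12, 12.09 and 12.31 on the day 18 arrays, against 12.31, 12.37 and 12.45 on the day 2 arrays, was not called (adjusted p = 0.207) and stayed -1.69 relative to day 0.

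**Figure D3:**
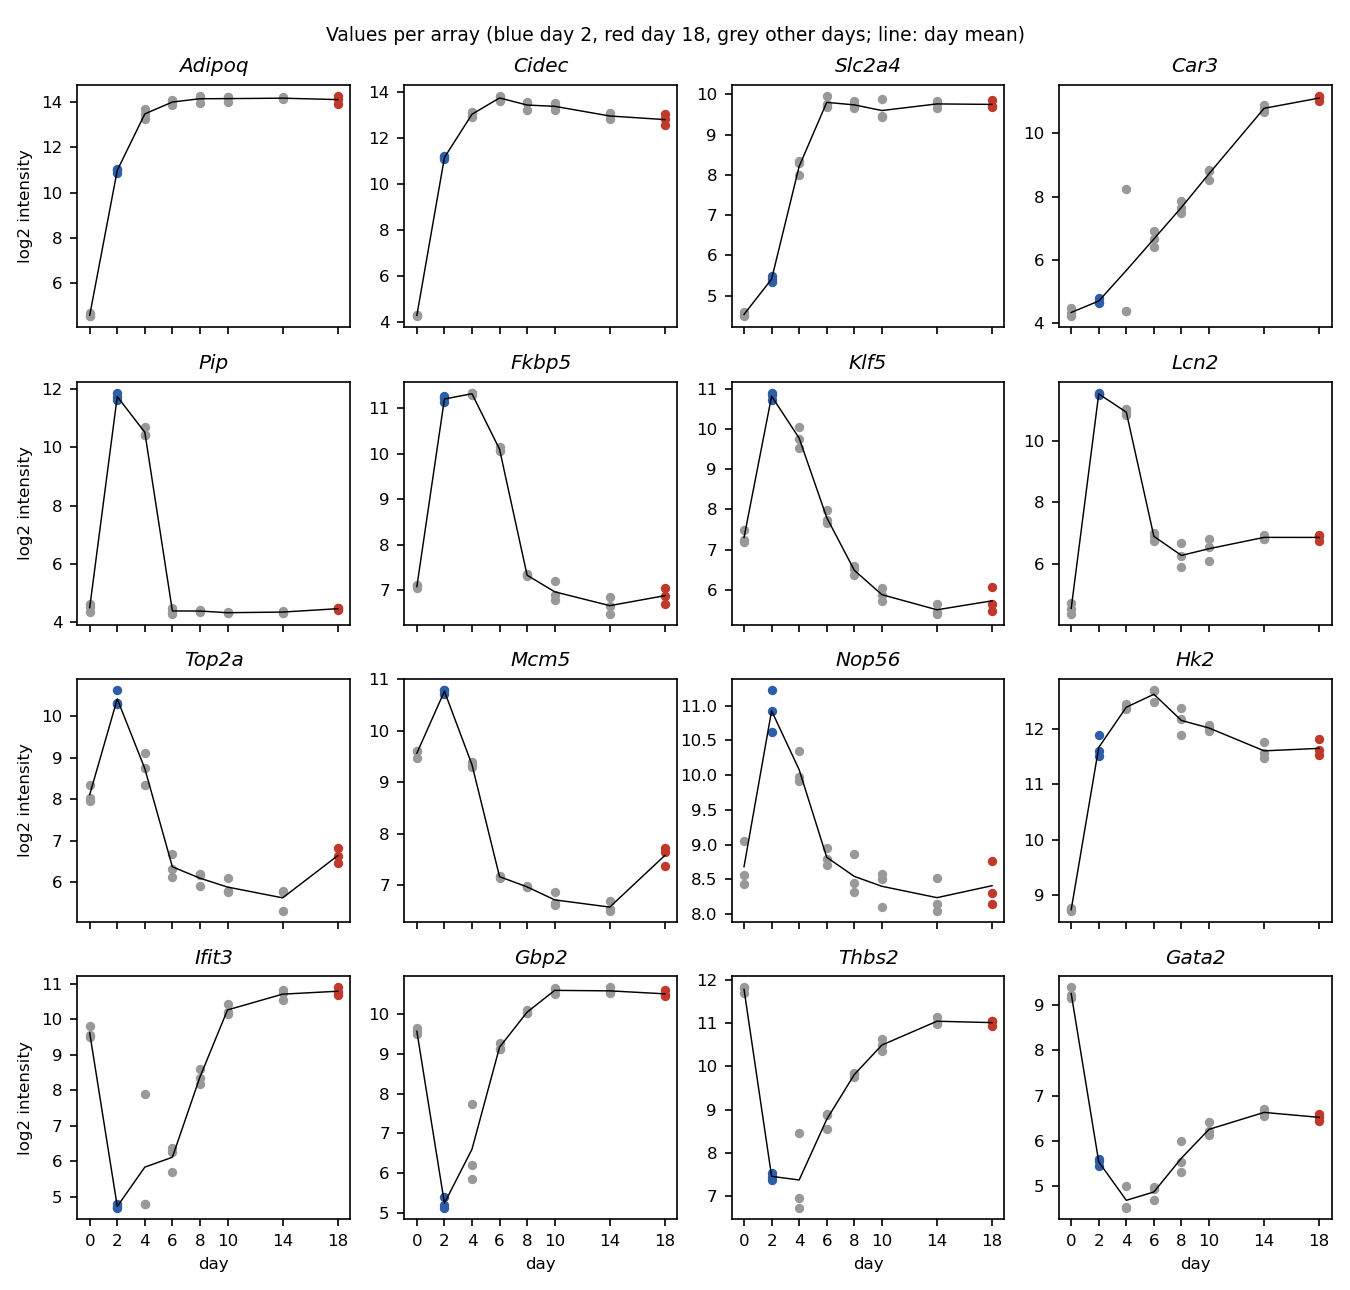
Log2 intensity of each of 24 arrays for 16 genes over days 0 to 18, with day 2 in blue, day 18 in red, other days in grey and a line through the day means. The top row rises to day 18, the second holds genes that peak on day 2 or 4 and come back, the third has growth genes and Hk2, which is at the same height on days 2 and 18, and the bottom row has genes that fall on day 2 and come back.

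Among the day 2 rises that were not called different on day 18, the 6 with the largest day 2 change were Gpat3, Fabp5, Ppargc1b, Tfrc, Pex11a and Hk2. Hk2, the insulin-responsive hexokinase (chromosome 6, 82725025 to 82774454), had 8.77, 8.72 and 8.73 on the day 0 arrays, 11.89, 11.59 and 11.50 on the day 2 arrays and 11.81, 11.52 and 11.61 on the day 18 arrays. Its difference of -0.02 ± 0.12 was not called (adjusted p = 0.918), and the day 18 and day 2 arrays overlapped. Gpat3, an acyltransferase of triglyceride synthesis, had 10.02, 9.64 and 9.86 on the day 18 arrays, against 10.31, 10.12 and 9.93 on the day 2 arrays and was not called (adjusted p = 0.0687), with arrays that overlapped, but 5 alternatives called it lower on day 18 (adjusted p = 0.0113 to 0.0445). Tfrc, the transferrin receptor, and Pex11a, a peroxisome protein, were not called either (adjusted p = 0.0537 and 0.078), but with the replicate number as a block both were called higher on day 18 (adjusted p = 0.036 and 0.00531), as they were under 6 and 4 alternatives in all. Fabp5 and Ppargc1b kept 95.7% and 96.8% of their day 2 rises. The largest day 2 rises that were extended were Cidec, Adipoq, Hsd11b1, G0s2, Dgat2 and Pnpla2. G0s2, an inhibitor of the lipase encoded by Pnpla2, had 11.88, 11.67 and 11.97 on the day 18 arrays, against 10.11, 9.95 and 10.08 on the day 2 arrays and rose by 1.79, and Pnpla2 itself rose by 0.96. Hsd11b1, which regenerates active glucocorticoid, had 11.85, 11.76 and 11.62 on the day 18 arrays, against 11.19, 11.05 and 10.82 on the day 2 arrays and rose by a further 0.72 ± 0.11 (adjusted p = 6.73e-06).

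Genes of fat synthesis and of the lipid droplet mostly rose further. Of 30 genes of fatty acid and triglyceride synthesis 24 rose and 2 fell, with a median of 1.04, and of 20 genes of the droplet coat and lipolysis 14 rose and 3 fell, with a median of 1.35. Acss2, which makes acetyl-CoA from acetate, had 12.55, 12.61 and 12.61 on the day 18 arrays, against 8.36, 8.07 and 8.19 on the day 2 arrays, a difference of 4.38 ± 0.12 (adjusted p = 7.17e-17), against 1.97 by its other probe. Gpd1, which supplies the glycerol backbone, was 20.5-fold higher, and Fads2, a desaturase, 15.1-fold higher after a day 2 difference of -1.57. Thrsp (Spot 14), a lipogenic protein of fat and liver, had 11.79, 11.50 and 11.90 on the day 18 arrays, against 6.07, 5.36 and 5.92 on the day 2 arrays, a difference of 5.95 ± 0.16. Scd1 rose by 2.02 and Fasn by 0.70. On the droplet side, Aqp7, the glycerol channel, and Cidea, a droplet protein, were undetected on day 2 and were at least 38.4-fold and at least 18.4-fold higher, with the probes of Aqp7 between 1.92 and 5.71 on the log2 scale. Plin1, the coat protein that guards the droplet, had 9.25, 9.18 and 9.38 on the day 18 arrays, against 6.22, 6.48 and 6.55 on the day 2 arrays, a difference of 2.85 ± 0.12 (adjusted p = 9.84e-14). The 3 droplet genes that fell, Abhd5, Fitm2 and Hilpda, did so by 0.70, 0.30 and 0.28.

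Nearly all cholesterol genes rose, and mostly after day 2. Of 19 genes of cholesterol synthesis and uptake 18 rose and 1 fell (Scap, by 0.47, a call lost when any of 3 single arrays was left out), and all 18 rose by at least 2-fold, where 10.2% of all genes did. The median was 2.31, while between days 2 and 0 it was 0.54. Insig1, the sterol-regulated brake on this pathway (chromosome 5, 28071412 to 28078662), had 10.73, 10.66 and 10.83 on the day 18 arrays, against 6.51, 6.22 and 6.12 on the day 2 arrays, a difference of 4.45 ± 0.12 (adjusted p = 1.05e-16), while its other probes ranged from 0.52 to 4.79 and not all were called. Fdps, which makes farnesyl diphosphate, had 13.51, 13.22 and 13.44 on the day 18 arrays, against 10.30, 10.22 and 10.25 on the day 2 arrays, a difference of 3.13 ± 0.09 (adjusted p = 2.1e-16). No array of day 18 reached down to day 2 for either. Tm7sf2, Pmvk and Dhcr7, all enzymes of the pathway, were 16-fold, 7.48-fold and 6.47-fold higher. Of 13 genes of sterol efflux and oxysterol receptor targets 8 rose and 0 fell at an adjusted p under 0.05, among them Pltp, the phospholipid transfer protein, whose rise of 2.52 (1.35 by its other probe) made up only part of a day 2 difference of -3.67.

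Mitochondrial genes rose by small steps with a few large exceptions. Of 23 fatty acid oxidation genes 20 rose and 1 fell, with a median of 0.89. Acads and Acaa2, enzymes of the beta-oxidation spiral, were not called between days 2 and 0 and were 5.03-fold and 4.36-fold higher on day 18. Acads had 10.83, 10.95 and 10.95 on the day 18 arrays, against 8.53, 8.56 and 8.65 on the day 2 arrays, with no overlap. Of 20 genes of branched-chain amino acid breakdown 14 rose and 0 fell, with a median of 0.93, among them Pccb, a propionyl-CoA carboxylase subunit, at 9.85, 10.01 and 10.09 on the day 18 arrays, against 7.86, 7.67 and 7.61 on the day 2 arrays. Of 65 oxidative phosphorylation genes 35 rose and 2 fell. The share called, 56.9%, was close to 55.5% over all genes, but there 25% were higher and 30.5% lower. The median of these 65 genes, 0.45, was near that of their day 2 rise, 0.48. Only Cox7a1 and Sdhb among them rose by 2-fold or more: Sdhb, a complex II subunit, by 1.14 ± 0.11 (0.63 by its lowest probe), and Cox7a1, an oxidase subunit typical of muscle and brown fat, by 5.50 ± 0.30 from a day 2 level detected on 1 of 3 arrays. Of 17 brown and beige adipocyte markers with a probe 8 passed the detection filter. Of these 8, 4 rose, namely Cox8b, Cox7a1, Cidea and Ppargc1a, and 4 were not called. Thus 50% were called, all higher, against 55.5% of all genes called either way and 25% called higher. Cox8b and Cidea were undetected on day 2 and so passed the filter through other days. The rise of Ppargc1a (adjusted p = 0.0372) was lost without any of 4 single arrays and under 3 other alternatives, and Ucp1 was below the detection filter. Of 27 citric acid cycle and pyruvate genes 16 rose and 1 fell (Idh3a, by 0.81), or 3 fell with the replicate number as a block. The pyruvate dehydrogenase kinases Pdk4 and Pdk1 rose by 1.51 and 1.55.

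Many glucocorticoid and cyclic AMP-responsive transcripts came down. Of 22 glucocorticoid receptor targets 12 fell and 7 rose, with a median of -0.60. Thus 86.4% were called, against 55.5% of all genes (30.5% lower and 25% higher). By contrast, 18 of the 22 had been higher on day 2 than on day 0. Pip, which is not in that list, encodes a secreted prolactin-inducible protein (chromosome 6, 41847549 to 41852065). It had 4.61, 4.34 and 4.54 on the day 0 arrays, 11.87, 11.73 and 11.62 on the day 2 arrays and 4.42, 4.50 and 4.48 on the day 18 arrays. It was detected on day 2 alone of these days and its day 18 signal was at least 121-fold lower (adjusted p = 4.29e-22). Fkbp5, the cochaperone that restrains the glucocorticoid receptor (chromosome 17, 28398753 to 28486149), had 7.04, 7.09 and 7.11 on the day 0 arrays, 11.22, 11.13 and 11.27 on the day 2 arrays and 7.06, 6.71 and 6.88 on the day 18 arrays. The day 18 arrays lay around the day 0 level, and the fall from day 2 was 4.32 (SE 0.10, adjusted p = 1.68e-17). Lcn2, the iron-scavenging protein lipocalin 2 (chromosome 2, 32384637 to 32387739), had 4.55, 4.72 and 4.38 on the day 0 arrays, 11.52, 11.56 and 11.48 on the day 2 arrays and 6.90, 6.94 and 6.73 on the day 18 arrays, fell by 4.66 (SE 0.17) and still kept 33.1% of its day 2 rise. Fam107a, also outside that list but known to be induced by glucocorticoids, was undetected on day 18 and at least 38.6-fold lower. Errfi1, a feedback inhibitor of the EGF receptor, had 8.87, 8.80 and 8.73 on the day 18 arrays, against 11.84, 11.84 and 11.72 on the day 2 arrays and fell by 3.00, and Ddit4 (REDD1), a brake on mTORC1, fell by 2.66. Tsc22d3, the glucocorticoid-induced leucine zipper, had 10.38, 10.52 and 10.78 on the day 18 arrays, against 12.44, 12.50 and 12.56 on the day 2 arrays, and 20.4% of its day 2 rise was left.

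Not all members of that list came down. Orm1, the acute phase protein orosomucoid (chromosome 4, 63344556 to 63348163), had 5.58, 5.27 and 5.18 on the day 0 arrays, 9.44, 9.47 and 9.38 on the day 2 arrays and 12.87 to 13.15 on the day 18 arrays and rose again by 3.58 ± 0.13 (adjusted p = 5.57e-15). Its paralog Orm2 and the sulfotransferase Sult1a1 did the same, with 1.36 and 2.26. Orm1 and Orm2 are close copies, and how their probes share signal was not tested. Nr3c1, the receptor itself, had 4.87, 4.75 and 4.74 on the day 18 arrays, against 5.22, 4.80 and 5.27 on the day 2 arrays and was not called (adjusted p = 0.137), except lower without replicate 2 of day 2 (adjusted p = 0.0396). Of 20 cyclic AMP-responsive and immediate early genes 11 fell and 5 rose, with a median of -0.47. Thus 80% were called, against 55.5% of all genes. This list had not been raised as a whole on day 2, with 8 genes higher than on day 0, 5 lower and a median of 0.06. Fosl1, an AP-1 subunit, had 4.90, 4.98 and 5.26 on the day 18 arrays, against 7.02, 7.30 and 7.37 on the day 2 arrays, Pde4d, a cyclic AMP phosphodiesterase, 5.50, 5.43 and 5.62 on the day 18 arrays, against 7.19, 7.25 and 6.99 on the day 2 arrays, and both were back at a level not called different from day 0. Sik1 and Nfil3 fell by 1.93 and 1.54, while Atf3, undetected on day 2, was at least 2.01-fold higher.

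Genes of cell division and growth fell together. Of 26 mitosis genes 25 fell, 23 of them by at least 2-fold, and the median was -2.45, whereas 8.07% of all genes fell by 2-fold or more. Of 39 genes of DNA replication and nucleotide supply 37 fell and 1 rose (Pold2, by 0.34, a call lost under median scaling), with a median of -1.87. On day 2, 21 of the 26 and 30 of the 39 had been above day 0, and on day 18, 23 and 34 were below it. Top2a, the topoisomerase that untangles replicated chromosomes (chromosome 11, 98992947 to 99024199), had 8.34, 8.03 and 7.94 on the day 0 arrays, 10.63, 10.30 and 10.31 on the day 2 arrays and 6.83, 6.63 and 6.46 on the day 18 arrays, a difference between days 18 and 2 of -3.77 ± 0.19 (adjusted p = 7.66e-13). Mcm5, a subunit of the replicative helicase (chromosome 8, 75109468 to 75128439), had 9.61, 9.48 and 9.61 on the day 0 arrays, 10.72, 10.79 and 10.79 on the day 2 arrays and 7.72, 7.65 and 7.38 on the day 18 arrays, a difference of -3.18 ± 0.09 (adjusted p = 8.85e-17). For both genes day 18 lay below day 0 and day 2 above it, with no overlap of any pair of these days. The mean of Top2a was lower still in between, with 6.37 on day 6 and 5.62 on day 14, and Mcm5 likewise had 6.58 on day 14. Aurka (a spindle kinase), Spc25 (a kinetochore protein), Rrm2 (ribonucleotide reductase) and Mcm6 were 7.99-fold, 6.84-fold, 7.01-fold and 7.25-fold lower.

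Control genes of the cycle did not follow as one. Of 22 genes of G1 control and cell cycle exit 12 fell and 4 rose. Calls covered 72.7% of the 22, against 55.5% of all genes (30.5% lower and 25% higher). Cdkn2c (p18INK4c), an inhibitor of the G1 kinases, had 12.61, 12.31 and 12.41 on the day 18 arrays, against 9.91, 9.89 and 9.86 on the day 2 arrays, a rise of 2.56 ± 0.10 (adjusted p = 1.33e-14). Rb1, the retinoblastoma protein that holds E2F factors in check, rose by 1.51, while Cdkn1a (p21) fell by 1.82 and Ccnd1 (cyclin D1) by 0.80. Myc had 5.28, 4.94 and 4.98 on the day 18 arrays, against 6.95, 6.48 and 6.63 on the day 2 arrays and fell by 1.62 to a level not called different from day 0, where it had been undetected. Of 32 ribosome biogenesis genes 30 fell and 0 rose, with a median of -1.33, and 29 of them had been higher on day 2 than on day 0. Nop56, a core protein of small nucleolar RNPs (chromosome 2, 130274367 to 130279313), had 9.05, 8.56 and 8.43 on the day 0 arrays, 11.22, 10.93 and 10.62 on the day 2 arrays and 8.77, 8.30 and 8.15 on the day 18 arrays, a difference of -2.52 ± 0.21 (adjusted p = 1.66e-09). Unlike the replication genes these returned to near day 0: against day 0 the median on day 18 was -0.10, with 3 genes higher and 7 lower, where the replication list had -1.03. Of 28 proteasome genes 12 fell and 0 rose at an adjusted p under 0.05, none by 2-fold, after 21 had been higher on day 2. Of these 28 genes 42.9% were called, all lower, against 55.5% of all genes called either way and 30.5% called lower.

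To show what the promoters of these growth genes share, the RefSeq promoter windows of GRCm38.p6 (250 bases before to 50 after the start) were searched on both strands. The first listed window of each gene was used, and its start can lie inside the gene range given above, as for Top2a and Mcm5. The line of Mcm5 covers 231 to 132 bases before that start. Capitals mark the motifs TTTGAA (the cell cycle homology region) and CCAAT in the mitosis genes and TTTGGCGC (an E2F site core) in the replication genes, and each line gives 100 bases, 5′ to 3′ in the direction of the gene.
Top2a (chr11:99024190-99024289, minus strand): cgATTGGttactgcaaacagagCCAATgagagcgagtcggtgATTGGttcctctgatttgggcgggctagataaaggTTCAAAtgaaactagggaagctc
Cdc20 (chr4:118437344-118437443, minus strand): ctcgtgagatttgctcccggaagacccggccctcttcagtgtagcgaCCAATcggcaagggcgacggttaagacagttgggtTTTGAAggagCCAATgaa
Mcm5 (chr8:75109278-75109377, plus strand): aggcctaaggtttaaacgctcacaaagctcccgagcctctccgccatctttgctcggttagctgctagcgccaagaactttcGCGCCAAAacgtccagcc
Mcm6 (chr1:128359706-128359805, minus strand): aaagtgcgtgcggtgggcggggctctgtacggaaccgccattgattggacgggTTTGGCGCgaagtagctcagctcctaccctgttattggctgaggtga
A motif on the opposite strand is capitalised as its reverse complement, as with ATTGG and TTCAAA in Top2a or GCGCCAAA in Mcm5. TTTGAA was in 19 of 23 mitosis promoters (82.6%), against 11.9% of the promoters of all genes tested, and CCAAT in 16 of 23 (69.6%), against 39.2%. TTTGGCGC or TTTCCCGC was in 8 of 32 replication promoters (25%), against 2.8%. A match is a description of the letters and not a site.

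Interferon-stimulated genes ran opposite to the growth genes. Of 26 tested, 25 rose and 1 fell, 23 of them rose by at least 2-fold, and the median was 1.95. On day 2, 23 of the 26 had been lower than on day 0, and on day 18, 15 were higher than on day 0 and 1 lower. Ifit3, an antiviral protein induced by type I interferon (chromosome 19, 34583119 to 34588982), had 9.51, 9.80 and 9.55 on the day 0 arrays, 4.69, 4.79 and 4.67 on the day 2 arrays and 10.91, 10.78 and 10.69 on the day 18 arrays. It was undetected on day 2 and at least 62.9-fold higher on day 18 (adjusted p = 1.32e-09; its probes gave 3.91 to 6.07 on the log2 scale), and the day 18 arrays also lay above those of day 0. Gbp2, an interferon-induced GTPase (chromosome 3, 142620663 to 142638008), had 9.58, 9.65 and 9.50 on the day 0 arrays, 5.40, 5.19 and 5.11 on the day 2 arrays and 10.61, 10.49 and 10.46 on the day 18 arrays, a difference between days 18 and 2 of 5.28 ± 0.28 (adjusted p = 1.64e-12). Gbp3 and Oasl2 were undetected on day 2 and were at least 14.7-fold and at least 17.7-fold higher, the second of them (1.15 on the log2 scale by its other probe) back to a level not called different from day 0. Ifi27l2a was 70.4-fold higher, at 12.90, 13.32 and 13.25 on the day 18 arrays, against 6.71, 7.20 and 7.14 on the day 2 arrays. The gene that fell, Irgm1, has another probe that was called higher, and the mean of its probes gave 0.57, so its direction is not settled. Of 6 macrophage and leukocyte markers, 5 including Ptprc and Adgre1 were undetected on both days, while Cd14 and, from the longer list of such markers, Lyz2 were 2.00-fold and at least 1.47-fold higher (the other probe of Lyz2 gave 0.55 on the log2 scale).

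Genes of antigen presentation mostly rose, and 4 of them (B2m, Tap1, Psmb8 and Psmb9) are also in the interferon list. Of 17 MHC class I presentation genes 15 rose and 2 fell (Calr and Pdia3, chaperones of the endoplasmic reticulum), with a median of 1.64, and the call of Pdia3 was lost when any of 3 single arrays was left out. Psmb9, an interferon-inducible proteasome subunit, had 8.95, 8.97 and 8.96 on the day 18 arrays, against 5.48, 5.42 and 5.05 on the day 2 arrays, a difference of 3.64 ± 0.28 (adjusted p = 4.84e-10), and H2-D1, a classical class I chain, had 8.52, 9.57 and 9.79 on the day 18 arrays, against 5.26, 6.01 and 5.86 on the day 2 arrays, a difference of 3.59 ± 0.54 (adjusted p = 8.31e-06). H2-K1 was undetected on day 2 and at least 5.16-fold higher. The nonclassical H2-T23 was 20-fold higher by one probe, a log2 difference of 4.32, and by only 0.58 on that scale by the other, so its size is not settled, and the 2 probes of H2-K1 gave 2.71 and 1.29. Class I genes are close copies of one another, so signal at one probe may come from more than one of them.

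The promoters of the interferon list were searched for the core of the interferon-stimulated response element, GAAA, any 2 bases and GAAA, which is in capitals (TTTC, any 2 bases and TTTC where it is on the opposite strand). The 3 genes shown are among those with large rises, and in Gbp3 a pair of matches overlap. For Ifit3 the line covers 202 to 103 bases before the first listed start. That start and the bases shown lie inside the gene range given above for Ifit3.
Ifit3 (chr19:34583327-34583426, plus strand): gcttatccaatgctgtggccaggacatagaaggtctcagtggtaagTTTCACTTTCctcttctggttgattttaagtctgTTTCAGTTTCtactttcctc
Gbp2 (chr3:142620563-142620662, plus strand): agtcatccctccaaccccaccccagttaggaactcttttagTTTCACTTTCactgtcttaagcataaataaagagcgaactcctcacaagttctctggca
Gbp3 (chr3:142559944-142560043, plus strand): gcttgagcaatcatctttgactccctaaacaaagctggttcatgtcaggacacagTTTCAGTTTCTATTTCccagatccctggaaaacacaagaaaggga
The motif was in 12 of 21 interferon promoters (57.1%), against 2.94% of the promoters of genes tested and 3.49% of all 27025 promoters in the table. For comparison, TCACNCCAC, a sterol regulatory element, was in 1 of 16 cholesterol promoters (6.25%), against 1.03%, and its absence from these letters says nothing about the factor.

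**Figure D4:**
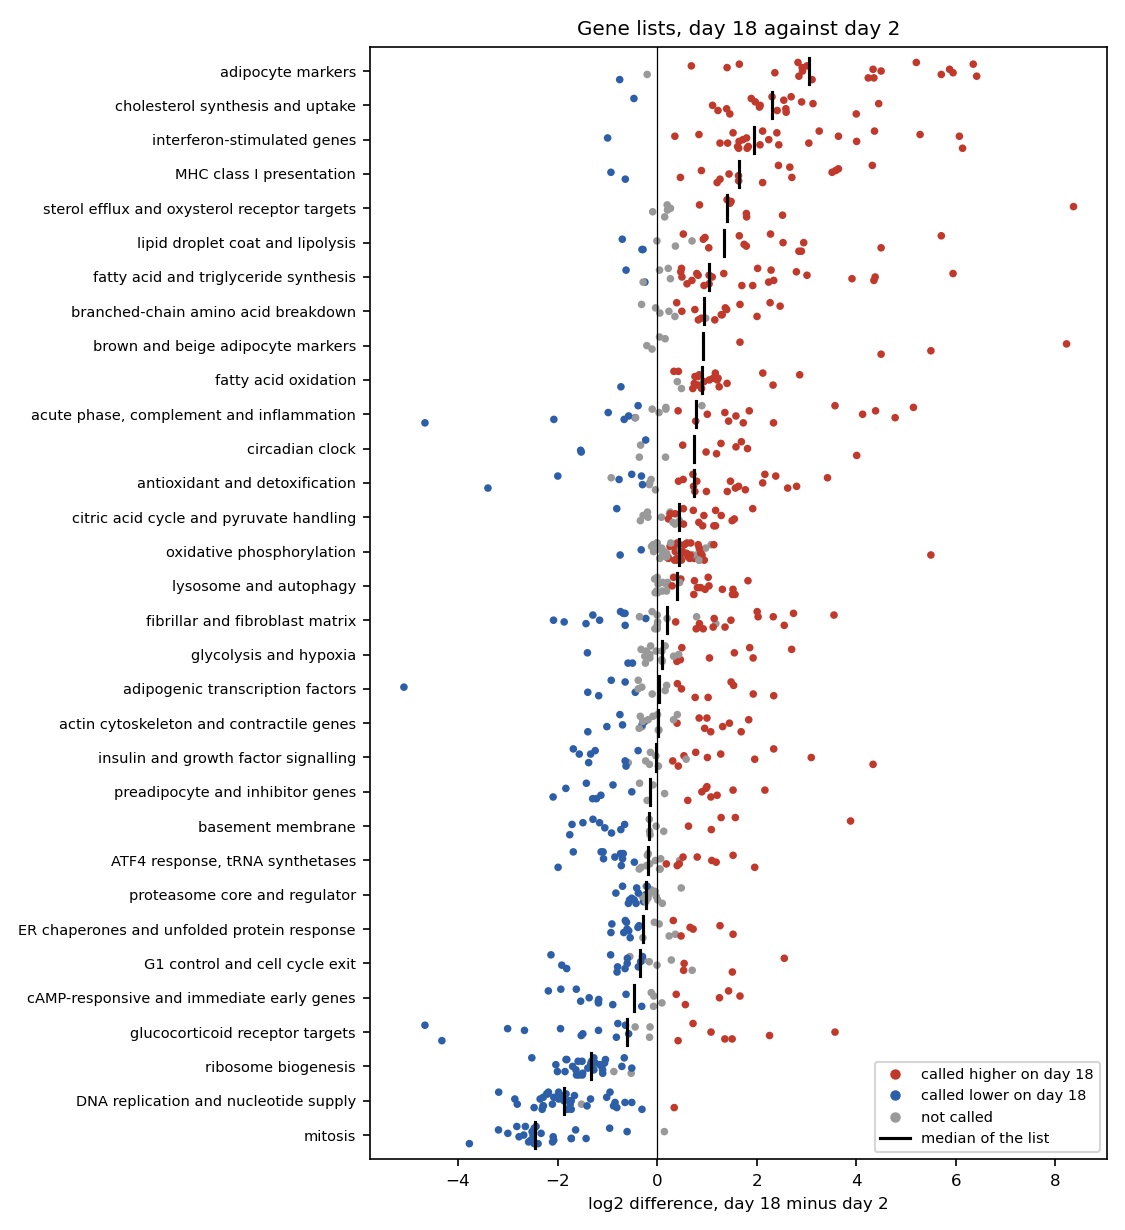
Each point is a tested gene of the list named on the left, placed at its log2 difference, day 18 minus day 2. Red points were called higher, blue lower, grey not called, and the black bar is the median of the list, from 3.06 for adipocyte markers to -2.45 for mitosis.

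The extracellular matrix recovered in part. Of 35 genes of fibrillar and fibroblast matrix 28 had been lower on day 2 than on day 0 and 0 higher, and on day 18 15 of the 35 were higher than on day 2 and 10 lower, with a median of 0.20. Between days 18 and 2, 71.4% of the 35 were called, against 55.5% of all genes. Against day 0, 26 of the 35 were still lower on day 18. Thbs2, a matricellular glycoprotein (chromosome 17, 14665500 to 14694262), had 11.82, 11.69 and 11.83 on the day 0 arrays, 7.54, 7.45 and 7.38 on the day 2 arrays and 11.05, 11.05 and 10.93 on the day 18 arrays, a difference between days 18 and 2 of 3.55 ± 0.26 (adjusted p = 3.48e-10), and 17.8% of its fall was left. Ogn and Lum, small leucine-rich proteoglycans, were 6.69-fold and 5.04-fold higher and not called different from day 0. Col1a1, the main chain of collagen I, had 11.18, 10.94 and 11.62 on the day 18 arrays, against 10.35, 10.33 and 10.70 on the day 2 arrays, a rise of 0.79 with 65.7% of its fall left. Ccdc80, a secreted protein of adipose tissue, was 26.5-fold higher and ended above day 0. All 15 that rose had been lower on day 2 than on day 0, and of the 10 that fell 5 had been lower on day 2 and 5 not called, with a median day 2 difference of -0.23. The falls included Mgp, Tnc (tenascin C) and Mmp2, by 2.08, 1.87 and 1.43 after day 2 differences of -0.42, -0.20 and -0.17, though 1 of the 4 probes of Tnc gave -0.11 and was not called.

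Basement membrane genes went in both directions, with 5 of 19 higher and 9 lower. Thus 73.7% were called, against 55.5% of all genes (25% higher and 30.5% lower). Lamb3, a laminin chain, was detected on 1 of 3 arrays of day 2 and was 14.8-fold higher on day 18, at 8.75, 8.49 and 8.62 on the day 18 arrays, against 4.99, 4.49 and 4.72 on the day 2 arrays. Col4a1 and Col4a2, the common collagen IV chains, had risen on day 2 and fell by 1.75 and 1.49 to below day 0. Of 26 actin and contractile genes 9 rose and 6 fell, so that 57.7% were called, near the 55.5% of all genes. Acta2, smooth muscle actin, had 14.07, 14.16 and 14.01 on the day 0 arrays, 11.10, 11.02 and 10.90 on the day 2 arrays and 13.05, 12.72 and 12.77 on the day 18 arrays, so that the recovery of 1.84 left 40.1% of its fall. Tpm1 kept 54.8% of its fall and Actg2 88.8%, and Actg2 was not called (adjusted p = 0.053), though it was called higher with the replicate number as a block (adjusted p = 0.0073). With that block 11 of the 26 genes fell.

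Among the partly undone falls was Gata2, which restrains the passage from preadipocyte to fat cell. It had 9.22, 9.39 and 9.14 on the day 0 arrays and 5.60, 5.56 and 5.45 on the day 2 arrays. The day 18 arrays had 6.53, 6.59 and 6.43. Gata2 rose by 0.98 from day 2 and kept 73.5% of its day 2 fall. Pdpn (podoplanin) and Aebp1 kept 62.7% and 67.4%. Among falls not called different on day 18 were Grem1, a BMP antagonist, Prokr1, a prokineticin receptor, and Rgs16, a regulator of G protein signalling, with 117%, 97.8% and 99.7% kept. Grem1 was called lower with the replicate number as a block (adjusted p = 0.0219). Among the falls that day 18 extended were Wnt6, Zfp521, an inhibitor of adipogenesis, and Spon2, and the last 2 fell by a further 0.51 and 0.53. Genes that were not called by day 2 and lower on day 18 included Has2, the hyaluronan synthase, with 7.38, 7.18 and 7.07 on the day 18 arrays, against 9.93, 9.88 and 9.91 on the day 2 arrays, and Vcan (versican), which binds hyaluronan, with 5.06, 4.62 and 4.56 on the day 18 arrays, against 8.89, 7.35 and 7.25 on the day 2 arrays. Has2 fell by 2.70 (SE 0.11, adjusted p = 6.85e-14) and Vcan by 3.09 (SE 0.44, adjusted p = 4e-06), and neither overlapped between days. Nbl1, a secreted BMP antagonist, fell by 2.70 from a day 2 mean of 8.91 that was not called different from the day 0 mean of 8.86.

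Acute phase, antioxidant and lysosome genes followed with more rises than falls. Of 27 genes of acute phase, complement and inflammation 14 rose and 7 fell, with a median of 0.78, where 25% of all genes rose and 30.5% fell. C4b, a complement component (chromosome 17, 34728139 to 34743902), had 11.50, 11.50 and 11.59 on the day 18 arrays, against 6.42, 6.22 and 6.50 on the day 2 arrays, a difference of 5.15 ± 0.33 (adjusted p = 3.19e-11), and it had not been called between days 2 and 0. Hp, the hemoglobin-binding haptoglobin, had 4.76, 4.39 and 4.49 on the day 0 arrays, 8.40, 8.13 and 8.03 on the day 2 arrays and 12.96, 12.85 and 13.10 on the day 18 arrays, and was 27.5-fold higher on day 18 than on day 2. The chemokine Ccl9, detected on 1 of 3 day 2 arrays, was 21-fold higher and not called different from day 0, while Cxcl13 was seen on day 2 alone of these days and was at least 3.19-fold lower. Of 29 antioxidant and detoxification genes 18 rose and 6 fell, so that 82.8% were called, against 55.5% of all genes. Gstt1 and Cat (catalase) were 10.7-fold and 4.49-fold higher, and Aldh3a1, an aldehyde dehydrogenase, had 7.26, 7.07 and 6.99 on the day 18 arrays, against 10.40, 10.49 and 10.62 on the day 2 arrays and fell by 3.40. Of 28 lysosome and autophagy genes 15 rose and 0 fell at an adjusted p under 0.05. Thus 53.6% were called, all higher, against 55.5% of all genes called either way and 25% called higher. On day 2, 16 of the 28 had been lower than on day 0.

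Clock output and insulin signalling genes changed in both directions. Of 14 circadian clock genes 8 rose and 3 fell, or 5 fell with the replicate number as a block. Without the block 78.6% were called, against 55.5% of all genes. Dbp, a PAR-domain output factor of the clock (chromosome 7, 45705100 to 45710203), had 10.40, 10.33 and 10.43 on the day 0 arrays, 7.42, 7.30 and 7.35 on the day 2 arrays and 11.48, 11.33 and 11.29 on the day 18 arrays, a difference between days 18 and 2 of 4.01 ± 0.10 (adjusted p = 2.14e-17). Its counterpart Nfil3, which binds the same sites as a repressor, fell by 1.54, Per1 fell by 1.52 and the nuclear receptor Nr1d1 (Rev-erb alpha) rose by 1.69, or 1.08 by its other probe. The sources used here do not give the hour of harvest, so its part was not tested. Of 25 insulin and growth factor signalling genes 10 rose and 8 fell, with a median of -0.02. Thus 72% were called, against 55.5% of all genes (25% higher and 30.5% lower). Akt2, the kinase that links the insulin receptor to GLUT4, was detected on 1 of 3 day 2 arrays and rose by 3.10 ± 0.15, to 7.96, 7.51 and 7.87 on day 18, against 4.72, 4.52 and 4.81 on day 2 (adjusted p = 6.82e-13), and its other probe gave 1.24. Igf1, a growth factor that fat cells secrete, had 10.96, 10.68 and 10.86 on the day 18 arrays, against 8.68, 8.33 and 8.46 on the day 2 arrays and rose by 2.34, while its receptor Igf1r fell by 1.37, Pik3r1 by 1.68 and the insulin receptor substrate Irs2 by 1.34.

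Genes named for other tissues appeared at both ends. Of 14 skeletal muscle genes with a probe 8 passed the detection filter and 5 of these rose, Myl1, Mb and Acta1 being undetected on day 2 and so kept through other days. Myl1, a fast myosin light chain, had 8.54, 8.28 and 8.27 on the day 18 arrays, against 4.45, 4.61 and 4.30 on the day 2 arrays, and was undetected on day 2 and at least 11.7-fold higher (adjusted p = 1.53e-12). Des (desmin) had 8.13, 8.18 and 7.97 on the day 18 arrays, against 4.86, 5.09 and 5.10 on the day 2 arrays, a difference of 3.08 ± 0.10 (adjusted p = 1.7e-15), and Mb (myoglobin) and Acta1 were at least 4.13-fold and at least 1.81-fold higher, with 1.01 on the log2 scale by the other probe of Mb. The muscle regulators Myod1 and Myf5 and the muscle proteins Ckm and Ttn were undetected on both days. The regulator Myog was detected on 3 of 3 arrays of day 18 and 1 of 3 of day 2, with means of 5.14 and 4.87, and was not called, and the log2 of the summed signal of the 6 muscle markers was 6.07 to 6.24 on day 18, against 5.21 to 5.53 on day 2. Some keratins were lower on day 18: Krt14 and Krt13, undetected on days 0 and 18, were at least 11.8-fold and at least 6.75-fold lower on day 18 than on day 2, and Krt15 had 4.90, 5.06 and 4.55 on the day 18 arrays, against 8.21, 8.43 and 8.42 on the day 2 arrays. Of the epithelial markers Cdh1 and Krt5 were undetected on both days. Krt8 was detected on all 6 arrays, with means of 5.49 on day 18 and 5.25 on day 2, and was not called. Cdsn (corneodesmosin), a protein of the outer skin, had a day 0 mean of 9.99 and a day 2 difference of -4.19. From day 2 Cdsn rose by 4.50 ± 0.09 (adjusted p = 2.04e-18), to a day 18 mean of 10.30, so most of this rise made up the earlier fall. Ang4, a secreted ribonuclease, and Retnla, a resistin-like protein, were likewise detected on day 2 alone of days 0, 2 and 18 and were at least 17.4-fold and at least 11.2-fold lower on day 18.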

How the data were processed

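Total RNA of 24 samples was hybridised to Illumina beadchips. Per the file headers, the authors deposited non-normalized intensity, on a linear scale, for 25697 probes, each with a detection p-value. The authors also deposited normalized intensity, used here as an alternative, and the sources used here do not name their method. GenomeStudio 2011.1 is named, without its role, per the submitters' processing notes. The map of columns to samples came from the titles.

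The non-normalized intensities were background-corrected with negative controls modelled from the detection p-values, quantile normalized and transformed to log2 after an offset of 16 (neqc, limma 3.58.1, R 4.3.3). Probes with a detection p-value under 0.05 on at least 3 arrays were kept (14160). Of all probes 23978 had 1 gene symbol, 0 several and 1719 none, and 23962 were matched by Entrez identifier to the RefSeq annotation of GRCm38.p6, the source of symbols and coordinates. The probe with the highest mean stood for its gene, giving 9558 genes, 2644 of them with more than 1 probe. A single limma fit with a mean per day used all 24 arrays (16 residual degrees of freedom), and p-values were adjusted by Benjamini-Hochberg within each contrast. For a probe with no detected signal on any array of a day, the fold is a bound, set by the higher of each dim array's lowest detected signal and the probe's own signal, with the adjusted p of the fit. The number of arrays limits precision, and differences that end near the detection limit, log2 4.80 to 4.85 on these arrays, are compressed.

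Day 18 and day 2 replicates share numbers in the labels. Deviations of same-numbered arrays from their day means correlated at 0.685, 0.499 and 0.371 across genes for replicates 1, 2 and 3. The highest correlation with an array of another number was -0.451, 0.202 and 0.145. Deviations from a day mean cancel out within the day, so a positive correlation of same numbers lowers the others. The contrast is thus in part fixed by construction. By their own correlations same-numbered arrays deviated together, and the sources used here do not tell what a number stands for. The main fit left the number out, and a fit with the replicate number as a block was an alternative.

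Named genes were the 15 largest rises and 15 largest falls whose arrays did not overlap, up to 5 called members of each list each way, the 6 largest of each class, and a fixed set of genes known in adipogenesis. The members and the 38 lists were chosen with earlier results of these data known. The fit was tested on simulated data. Alternatives covered background, offset, scaling, the authors' table, filters, probe summary, prior, days fitted, single arrays and fold minimum. Motifs were searched with Python 3.11.15, and figures were drawn with matplotlib 3.10.9.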

Additional observations from a re-analysis of the deposited data

How the results depend on the processing

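With the replicate number as a block, 6214 genes were called in place of 5305, all 5305 among them and 0 with the opposite sign, and no count other than the 5 list counts given beside their lists moved by over 1.5 times. Single arrays left out gave 2222 to 2302 genes higher and 2674 to 2779 lower, and moved no class count by over 1.5 times. Of the 316 named genes (311 with the strict detection filter), between 302 and 316 kept direction and side of the threshold under each alternative. Size was not part of that check and could differ, as for Fabp4, with 1.06 to 3.08 across alternatives. The mean of probes reversed Irgm1 to 0.57, and 3 named genes (Irgm1, Acot1 and Ctsa) have a probe called the other way, while in 78 of 101 named genes with several probes all were called alike. Median scaling put 37% of called genes higher, against 45.1%, and gave 271 genes lower only after day 2. Without background correction the counts of at least 2-fold fell to 515 higher and 328 lower, the classes of the rises to 57 extended, 50 not called, 72 partly undone, 55 fully undone and 29 overturned, and those of the falls to 42, 82, 199, 32 and 35 in the same order. Genes changed only after day 2 were then 158 higher and 55 lower, and those not called between days 18 and 2 were 15 higher and 22 lower between. An offset of 50 gave 49 overturned rises, 148 falls not called, 63 fully undone and 59 overturned, 96 genes lower only after day 2, and 27 and 39 genes higher and lower only between. Detection on all 3 arrays of day 0, 2 or 18 gave 30 genes higher between. A day 2 change of at least 1.5-fold gave 280 extended, 299 not called, 388 fully undone and 259 overturned rises, and 235, 559, 266 and 196 such falls. At least 4-fold gave 42, 23, 33, 18 and 6 rises and 5, 24, 119, 22 and 18 falls from extended to overturned. The classes thus depend on the fold minimum and on the compression of dim signals, by construction. Dim probes set the limit, since a change below detection has a bound only.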

Other observations

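Some genes were not called different between days 18 and 2 but differed from both in between, which the comparison of the end points alone would miss. The contrasts share arrays, so they are a description without a test. Elovl3, a fatty acid elongase of brown fat, liver and skin, was undetected on days 0, 2 and 18 and averaged 7.32 on day 4 and 6.26 on day 6. Fa2h, which hydroxylates fatty acids, was undetected on the same days and averaged 7.37 on day 4. Cyp2e1, a cytochrome P450 known from liver, averaged 7.36 on day 6 and was undetected on all 3 arrays of day 10. Noct (nocturnin), a clock-linked enzyme that favours adipogenesis, had 8.96 on day 2, 10.98 on day 4 and 8.74 on day 18, and was called lower on day 18 than on day 2 under median scaling (adjusted p = 0.00733). Dusp4, a MAP kinase phosphatase, had 6.77, 9.15 and 6.87 on the same days.

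The reverse course was seen in the 6 genes with the deepest dip. Prokr1, a prokineticin receptor, had 6.84 on day 2, 4.69 on day 4 and 6.91 on day 18. Fbln1 (fibulin 1), a matrix glycoprotein, had 9.64 on day 2, 7.27 on day 6 and 9.64 on day 18. Slit2, a guidance ligand, had 9.21, 6.73 and 8.98 on the same days, and was called lower on day 18 than on day 2 under 3 alternatives, the replicate number as a block among them (adjusted p = 0.0128 to 0.0475). Ptn (pleiotrophin), a heparin-binding growth factor, had 13.45 on day 2, 11.37 on day 4 and 13.43 on day 18, and Ptx3 (pentraxin 3) 9.24, 7.12 and 9.34. Timp1, an inhibitor of matrix proteases, had 9.39 on day 2, 7.40 on day 6 and 9.41 on day 18, so that 99.5% of its day 2 fall stood on day 18.

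Stress and synthesis genes were mixed. Of 31 genes of the ATF4 response, 9 rose and 11 fell from day 2 to day 18, where 55.5% of all genes were called. Trib3, an inhibitory pseudokinase, rose by 1.96 ± 0.22 (limma adjusted p = 1.27e-07), with 8.15, 8.02 and 8.02 on the day 18 arrays, against 6.34, 5.91 and 6.06 on the day 2 arrays. Slc7a5, the large neutral amino acid transporter, fell by 1.68, with 10.21, 10.08 and 10.44 on the day 18 arrays, against 12.02, 11.82 and 11.94 on the day 2 arrays, and kept 18.8% of its day 2 rise. Of 21 genes of endoplasmic reticulum chaperones and the unfolded protein response 6 rose and 10 fell. Thus 76.2% were called, against 55.5% of all genes. Herpud1, a component of the degradation machinery there, was 2.4-fold higher, with 11.55, 11.38 and 11.49 on the day 18 arrays, against 10.28, 10.17 and 10.18 on the day 2 arrays, and Creld2 fell by 0.91, with 8.78, 8.95 and 8.87 on the day 18 arrays, against 9.80, 9.86 and 9.67 on the day 2 arrays. Of 25 glycolysis and hypoxia genes 8 rose and 3 fell, so that 44% were called, below the 55.5% of all genes. Egln3, an oxygen-sensing hydroxylase, was 6.52-fold higher, while Pfkp, the platelet phosphofructokinase, fell by 1.40 and Pfkl, the liver form, rose by 1.05. The other probe of Pfkp gave -0.043 and was not called, and that of Pfkl gave 0.30.

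The full lists of cell type markers, of which the report gives the defining ones, had few members past the detection filter. Of 15 fibroblast markers tested 7 rose and 2 fell, or 4 fell with the replicate number as a block. Of 4 macrophage and leukocyte markers tested 2 rose, of 4 endothelial markers 1 rose and 1 fell, of 6 chondrocyte and osteoblast markers 1 rose, and of 5 epithelial and keratinocyte markers 1 rose and 1 fell, or 2 rose with that block.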
